A study of Mus musculus with 8 samples.

Results

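The 10 genes described here, *Tmem154*, *Il17rb*, *Wnt9b*, *Ecel1*, *Rgs13*, *Htra4*, *Stc2*, *Ush1g*, *Ankrd63* and *Fmod*, are less known genes that stood far apart in 1 of 8 samples of mouse cortex, in which the activity genes *Npas4* and *Bdnf* were also at their highest. They were chosen on their measured values, as genes with top loadings on the leading principal component of expression (log2 of CPM, counts scaled to the size of each library), and they are 10 of 53379 genes listed and of 16914 genes tested. Gene counts were made from bulk RNA of the cingulate cortex of male mice, 4 Mvp+/+ samples (WT) and 4 Mvp-/- samples (Mvp KO), with no treatment in either group. The Mvp KO mice carry a gene-trap cassette from 1 embryonic stem cell clone in the first intron of *Mvp* on a C57BL/6 background, in every cell of the animal, and the age of these mice is not given in the sources used here. The replicates are separate samples of each genotype, and p-values measure the spread between these samples. Each library held between 28456504 and 42854368 counts, and levels below 1 CPM rest on few reads.

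Neurons that fire strongly switch on genes in waves. Immediate early genes such as *Npas4*, a neuron-specific transcription factor, come first, and later genes such as *Bdnf*, a neurotrophin with a promoter that responds to calcium entry, follow them. The 10 genes are better known outside the cortex. *Il17rb* encodes a receptor subunit for interleukins of the IL-17 family, *Wnt9b* a Wnt ligand of urogenital development, *Stc2* the secreted glycoprotein stanniocalcin and *Htra4* a secreted serine protease. *Ecel1* encodes a neuronal membrane peptidase that is induced by nerve injury, and *Rgs13* a protein that speeds the shut-off of G-protein signals. *Ush1g* encodes a scaffold protein of hair cells that is mutated in a form of deaf-blindness, and *Fmod* encodes fibromodulin, a proteoglycan that binds collagen. *Tmem154* encodes a membrane protein and *Ankrd63* an ankyrin repeat protein, both of little known function.

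Promoter sequence was taken from RefSeq (GRCm38.p6) as the 250 bases before the transcription start in RefSeq, and 8 of the 10 genes had an entry. The stretches below are those of the 10 genes that held at least 1 of the motifs searched, with the window of *Bdnf* that held the most kinds of motif for comparison. All are written 5′ to 3′ on the strand of the gene, which is + for *Tmem154* (chr3:84665942-84666191) and *Bdnf* (chr2:109692186-109692435) and - for *Il17rb* (chr14:30008897-30009022) and *Ankrd63* (chr2:118703964-118704213). The *Il17rb* stretch is shortened to 126 bases because an exon of *Chdh* on the other strand begins in the window. Capitals mark matches to the motifs on either strand.
Tmem154: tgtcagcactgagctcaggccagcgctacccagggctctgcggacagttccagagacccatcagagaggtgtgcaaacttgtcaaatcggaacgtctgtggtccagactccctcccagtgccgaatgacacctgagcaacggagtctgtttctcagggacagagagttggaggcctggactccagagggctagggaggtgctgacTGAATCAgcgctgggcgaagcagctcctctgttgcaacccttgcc
Il17rb: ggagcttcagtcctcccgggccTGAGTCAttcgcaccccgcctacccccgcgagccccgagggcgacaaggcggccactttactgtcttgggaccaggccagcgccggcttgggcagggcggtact
Ankrd63: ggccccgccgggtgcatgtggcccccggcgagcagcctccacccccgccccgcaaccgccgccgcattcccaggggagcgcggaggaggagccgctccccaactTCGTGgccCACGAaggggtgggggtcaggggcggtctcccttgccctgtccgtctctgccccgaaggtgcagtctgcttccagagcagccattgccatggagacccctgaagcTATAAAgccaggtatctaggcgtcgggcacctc
Bdnf: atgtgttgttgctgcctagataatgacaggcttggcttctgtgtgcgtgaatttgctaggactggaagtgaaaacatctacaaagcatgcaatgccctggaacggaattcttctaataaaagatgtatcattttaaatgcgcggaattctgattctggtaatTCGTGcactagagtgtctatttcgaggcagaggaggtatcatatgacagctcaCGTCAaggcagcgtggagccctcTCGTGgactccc
The capitals are AP-1 sites (TGANTCA) in *Tmem154* and *Il17rb*, the core bound by NPAS4 with ARNT (TCGTG, here once on each strand) and a TATA box (TATAAA) in *Ankrd63*, and TCGTG and the core of a CRE (TGACG, on the opposite strand) in *Bdnf*. The AP-1 site began 45 bases before the start of *Tmem154* and 104 bases before that of *Il17rb*, and the TATA box 33 bases before that of *Ankrd63*. Among all 32851 windows of this length, AP-1 was found in 6.75%, TCGTG in 13.3%, TGACG in 17.8% and TATAAA in 12.4%. The full CRE (TGACGTCA, 1.55% of all windows), the E-box (CACGTG, 6.02%) and the SRE (CArG box, 1.47%) were found in 0 of the 8 windows, as was TGACG. The windows of *Wnt9b*, *Ecel1*, *Rgs13*, *Stc2* and *Fmod* held none of the motifs searched. The RefSeq starts of *Ecel1* and *Stc2* lie inside the genes as GENCODE has them. Of the 250 bases of the window, 165 lie in the gene for *Ecel1* and 13 for *Stc2*. Most of the *Ecel1* window is therefore not upstream of the start used for the positions below, and most of the *Stc2* window is. A match or its absence describes only these letters in this window.

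The choice of these genes rests on 1 sample. On that component, which held 46.0% of the variance, WT replicate 4 scored 71.5 and the other 7 samples scored between -20.4 and -2.78. The 10 genes held ranks 1 to 6, 8, 9, 12 and 13 of the loadings by absolute value. The last of them, *Fmod* (loading -0.0473), stood next to the transporter *Slc47a1* at rank 14 (loading -0.0473, 0.0635 CPM in WT replicate 4 against 0.50 to 5.16 CPM) and *Slc22a2* at rank 15 (loading -0.0472, 0 counts in WT replicate 4, which allows up to 3). The dopamine receptor gene *Drd4*, the synaptic pentraxin gene *Nptx2* and the opioid receptor gene *Oprk1* lie between them at ranks 7, 10 and 11 and were not among the genes chosen. Since 1 sample sets the choice, its levels are given as a description, with no test. Correlations with *Npas4* and *Bdnf* and differences between the genotypes are given with and without it. Related genes, neighbouring genes and marker lists are described mainly by their levels in that sample.

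Of the 10 genes, 8 were highest in WT replicate 4 and 2 were lowest there. Across all genes tested, 29.2% were highest and 32.5% lowest in that sample. All 8 high genes stood at least 8-fold above the median of the other 7 samples (log2 CPM, prior count 2), as did 0.219% of all genes, and both low genes at least 8-fold below it, as did 0.101% of all genes. The rule used this contrast, and nothing is read from these counts. The median absolute log2 ratio to the other samples was 4.70 for the 10 genes and 0.29 for all genes. In this bulk tissue, fewer cells of a type and less RNA per cell cannot be told apart.

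**Figure D1:**
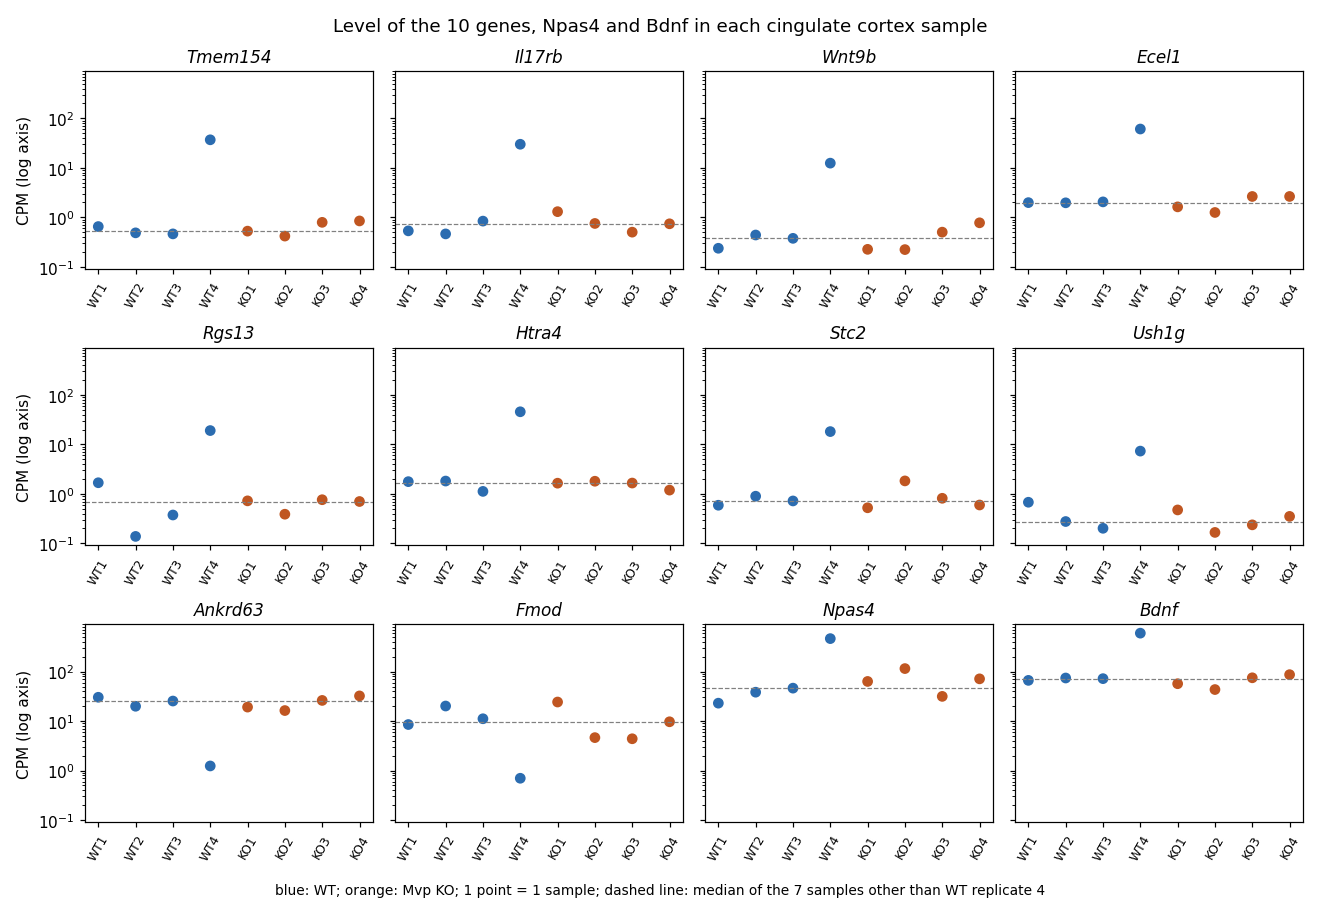
Level of each of the 10 genes, *Npas4* and *Bdnf* in CPM on a log axis, with 1 point per sample (WT in blue, Mvp KO in orange) and the median of the 7 samples other than WT replicate 4 as a dashed line. WT replicate 4 is the highest of the 8 samples for the first 8 genes and for *Npas4* and *Bdnf*, and the lowest for *Ankrd63* and *Fmod*.

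Among receptors and membrane proteins, *Tmem154* (ENSMUSG00000056498, chr3:84666192-84704575, + strand) was at 0.649, 0.484, 0.461 and 36.8 CPM in WT replicates 1 to 4 and at 0.524, 0.416, 0.789 and 0.842 CPM in Mvp KO replicates 1 to 4. WT replicate 4 alone was high, and the other samples of both genotypes overlapped. Its 1159 counts there, against 15 to 30 in each other sample, made *Tmem154* 70.2-fold higher than the median, and its ratio to the pooled other samples was 62.9 (95% Poisson interval 53.0 to 75.1, counting error only). The IL-25 receptor gene *Il17rb* (chr14:29996135-30008896, - strand) was at 0.531, 0.461, 0.835 and 29.9 CPM in the WT replicates and at 1.30, 0.749, 0.50 and 0.737 CPM in the Mvp KO replicates. The sample in second place, Mvp KO replicate 1, was therefore far below WT replicate 4, which stood 40.6-fold above the median. A share of 3.80% of the exon bases of *Il17rb* lies opposite *Actr8*, which had 2396 counts in WT replicate 4 and 1692 to 2599 in the others, so this neighbour did not show the same pattern.

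Of the secreted proteins, the Wnt ligand gene *Wnt9b* (chr11:103727364-103749821, - strand) was at 0.236, 0.438, 0.375 and 12.4 CPM in the WT replicates and at 0.225, 0.222, 0.50 and 0.772 CPM in the Mvp KO replicates. Outside WT replicate 4 it was near the limit of the data, with 8 to 22 counts a sample. *Stc2* (chr11:31357307-31370074, - strand) was at 0.590, 0.898, 0.720 and 18.2 CPM in WT and at 0.524, 1.83, 0.815 and 0.597 CPM in Mvp KO. Mvp KO replicate 2 was second here, at 66 counts. The protease gene *Htra4* (chr8:25024929-25038962, - strand) was at 1.77, 1.82, 1.12 and 45.8 CPM in WT and at 1.65, 1.80, 1.66 and 1.19 CPM in Mvp KO, the most even of the 8 high genes outside WT replicate 4. WT replicate 4 stood above the median of the others 33.1-fold for *Wnt9b*, 25.3-fold for *Stc2* and 27.6-fold for *Htra4*. A share of 33.0% of the exon bases of *Htra4* lies opposite *Gm16933*, and without a stated strand setting their reads cannot be told apart. *Gm16933* itself had 39 counts in WT replicate 4 and 1 to 14 in the others, against 1441 and 34 to 79 counts of *Htra4*.

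The peptidase gene *Ecel1* (chr1:87147655-87156521, - strand) was at 1.98, 1.96, 2.05 and 60.8 CPM in the WT replicates and at 1.62, 1.25, 2.63 and 2.63 CPM in the Mvp KO replicates, and had the most counts of the 8 high genes. WT replicate 4 was 30.8-fold above the median. Inside the cell, the G-protein regulator gene *Rgs13* (chr1:144138654-144177372, - strand) was at 1.68, 0.138, 0.375 and 19.1 CPM in WT and at 0.723, 0.388, 0.763 and 0.702 CPM in Mvp KO. It varied most of the 8 outside WT replicate 4, 12.2-fold from WT replicate 2 (6 counts) to WT replicate 1 (57 counts). The scaffold gene *Ush1g* (chr11:115315192-115322041, - strand) was at 0.678, 0.276, 0.202 and 7.33 CPM in WT and at 0.474, 0.166, 0.237 and 0.351 CPM in Mvp KO. It was the least abundant, with 6 to 23 counts in the other samples and 231 in WT replicate 4. *Rgs13* stood 27.2-fold and *Ush1g* 26.5-fold above the median in that sample.

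The 2 low genes were well measured outside WT replicate 4. *Ankrd63* (chr2:118699103-118703963, - strand), a gene of 1 exon, was at 30.3, 19.9, 25.4 and 1.24 CPM in the WT replicates and at 19.2, 16.3, 26.2 and 32.3 CPM in the Mvp KO replicates. It had 39 counts in WT replicate 4 and 589 to 1028 elsewhere, 20.5-fold less than the median. *Fmod* (chr1:134037254-134048277, + strand) was at 8.52, 20.2, 11.1 and 0.699 CPM in WT and at 24.3, 4.63, 4.39 and 9.69 CPM in Mvp KO, 13.9-fold lower in WT replicate 4 than the median. The samples other than WT replicate 4 already differed 5.53-fold for *Fmod* and 1.98-fold for *Ankrd63*. Scaled to exon length, *Ankrd63* (5.23 CPM per kb) and *Fmod* (2.93 CPM per kb) led the 10 genes at the median of these 7 samples, and the 8 others lay between 0.0829 and 0.689 CPM per kb. In WT replicate 4 the order by this scale was *Htra4* (19.0 CPM per kb), *Ecel1* (17.4), *Rgs13* (11.5), *Il17rb* (8.07), *Tmem154* (7.77), *Stc2* (3.52), *Wnt9b* (2.75) and *Ush1g* (2.22), with *Ankrd63* (0.255) and *Fmod* (0.211) last. A single sample has no spread, so neighbours in this order are not ranked by a test.

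*Npas4* and *Bdnf* were the genes used for comparison. *Npas4* (chr19:4984355-4990316, - strand) was at 23.0, 38.4, 46.4 and 465 CPM in the WT replicates and at 63.3, 115, 31.6 and 71.5 CPM in the Mvp KO replicates. *Bdnf* (chr2:109674700-109727007, + strand) was at 66.6, 74.3, 72.1 and 599 CPM in WT and at 57.0, 43.4, 75.1 and 86.9 CPM in Mvp KO. Both were highest in WT replicate 4, 10.04-fold and 8.31-fold above the median, but by less than the 8 high genes, and they held ranks 47 and 37 on the component. Per kb of exon they remained more abundant than any of the 10 genes there, at 112 CPM per kb for *Npas4* and 96.4 CPM per kb for *Bdnf*. The 2 genes did not follow each other over all of the other 7 samples (Pearson r = -0.53, Spearman rho = -0.25 on log2 CPM). Without the 2 samples farthest from the median of *Bdnf* (Mvp KO replicates 1 and 2), r was 0.89. Without the 2 farthest from the median of *Npas4* (WT replicate 1 and Mvp KO replicate 2), it was -0.07. The value over the 7 samples therefore rests on few of them. Mvp KO replicate 2 was the highest of the 7 for *Npas4* and the lowest for *Bdnf*.

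Over all 8 samples the 8 high genes had r of at least 0.668 with *Npas4* and at least 0.861 with *Bdnf*, and *Ankrd63* and *Fmod* had r of -0.89 and -0.72 with *Npas4* and -0.90 and -0.78 with *Bdnf*. WT replicate 4 sets these values. Among the 28 pairs of the 8 high genes, r ran from 0.769 to 0.994 with it and from -0.74 to 0.83 without it, with a median of -0.19 and 12 pairs positive. The coefficients are descriptions over samples that share their libraries, and they carry no test.

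Over the 7 other samples, 2 of the 10 genes had a positive r with *Npas4*, and 7 had one with *Bdnf*. Of all genes tested, 49.5% and 48.6% had a positive r with *Npas4* and *Bdnf*. *Il17rb* (r = 0.58, rho = 0.57) was the gene most like *Npas4*, and without the 2 samples farthest from the median of *Npas4* its r was 0.73. *Stc2* (r = 0.51, rho = 0.21) turned to r = -0.88 without the same samples, so that relation rests on them.

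*Ecel1* (r = 0.94, rho = 0.89) and *Wnt9b* (r = 0.84, rho = 1) were nearest to *Bdnf* and lay above the 95th percentile of all genes (r = 0.82). *Wnt9b* ranked all 7 samples exactly as *Bdnf* did, though it had at most 22 counts in any of them. Without the 2 samples farthest from the median of *Bdnf*, r was 0.73 for *Ecel1* and 0.98 for *Wnt9b*. *Tmem154* (r = 0.68, rho = 0.71) came next among the high genes and had r = 0.51 over the same 5 samples. *Ankrd63* also had a positive r with *Bdnf* over the 7 samples (r = 0.79, rho = 0.75, and r = 0.24 without the 2 farthest), opposite to its place in WT replicate 4. *Stc2* (r = -0.63, rho = 0), *Htra4* (r = -0.52, rho = -0.29) and *Il17rb* (r = -0.37, rho = -0.54) had negative r. Without the 2 farthest samples, r was -0.08 for *Stc2*, -0.50 for *Htra4* and 0.34 for *Il17rb*.

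**Figure D2:**
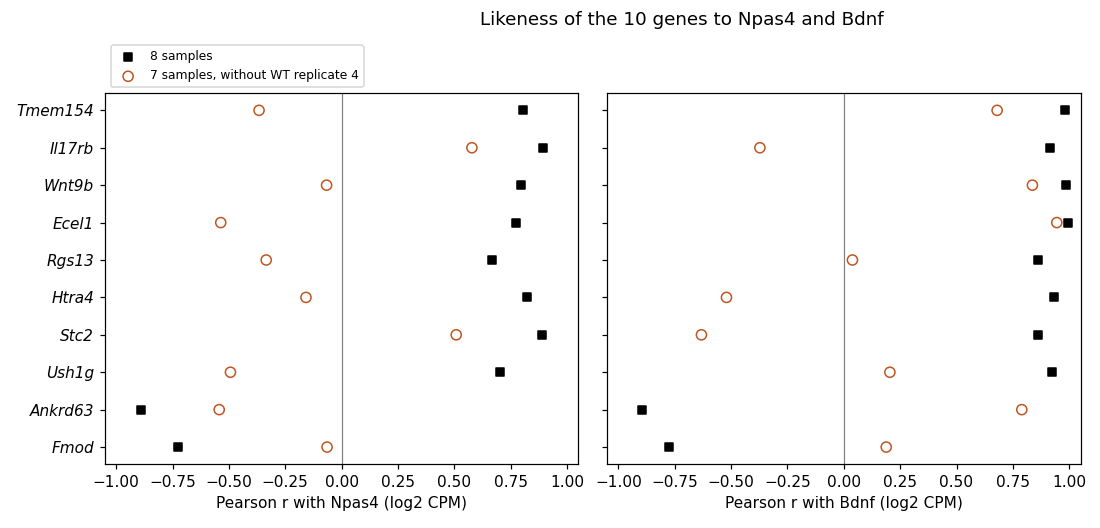
Pearson r of log2 CPM of each of the 10 genes with *Npas4* (left) and with *Bdnf* (right), over all 8 samples (black squares) and over the 7 without WT replicate 4 (open circles). With 8 samples all high genes lie at 0.668 or above and both low genes at or below -0.72, and with 7 samples 2 of 10 genes are positive for *Npas4* and 7 of 10 for *Bdnf*.

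The same 7 samples differed in oligodendrocyte RNA. The summed level of 8 oligodendrocyte markers ran from 1518 CPM in Mvp KO replicate 4 to 5636 CPM in Mvp KO replicate 1, and it was 1317 CPM in WT replicate 4, the lowest of all, with 6 of the 8 markers lowest there. Over the 7 samples its log2 had r = -0.75 with *Bdnf*, -0.77 with *Ecel1*, -0.68 with *Wnt9b*, -0.68 with *Tmem154* and -0.80 with *Ankrd63*. It had r = 0.76 with *Il17rb* and 0.53 with *Npas4*. The genes most like *Bdnf* were therefore those that were low where oligodendrocyte markers were high. *Il17rb*, the gene most like *Npas4*, shared with it a positive r to these markers. The part of oligodendrocyte RNA in either likeness was not tested. When WT replicate 4 was left out, the first component (34.7% of the variance) placed the 10 genes at ranks 298 (*Rgs13*) to 4736 (*Htra4*) of 17159, with 0 in the top 100.

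How far each gene varied outside WT replicate 4 differed between them. The coefficient of variation over the 7 samples was 18.5% for *Htra4*, 24.6% for *Ankrd63*, 24.9% for *Ecel1* and 28.2% for *Tmem154*, and it was 64.4% for *Fmod* and 73.0% for *Rgs13*. The variance over that of counting error alone was 1.64 for *Tmem154* and 1.81 for *Htra4*, so counting error was a large share of their spread, and it was 13.5 for *Rgs13* and 185 for *Fmod*. In single samples, *Rgs13* and *Ush1g* were at least 2-fold above the median in WT replicate 1, *Stc2* in Mvp KO replicate 2 and *Fmod* in WT replicate 2 and Mvp KO replicate 1. *Rgs13* was at least 2-fold below it in WT replicate 2, and *Fmod* in Mvp KO replicates 2 and 3. In WT replicate 3 and Mvp KO replicate 4, 0 of the 10 genes reached 2-fold.

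Between the genotypes, 0 of the 10 genes passed an adjusted p of 0.05 in the quasi-likelihood F test of edgeR (Benjamini-Hochberg adjustment), where 0.00591% of all genes did (1 of 16914). At an unadjusted p under 0.05, 7 of the 10 were lower in Mvp KO, as were 0.863% of all genes, and 0 of the 7 were past it without WT replicate 4. The genes were picked for their loadings, which this WT sample sets, so that count is not independent of the choice and nothing is read from it. The DESeq2 Wald test also called 0, with an adjusted p for only 2 of the 10. The targeted gene *Mvp*, which encodes the major vault protein, was at 6.81, 7.12, 7.89 and 5.49 CPM in WT and at 1.45, 1.44, 2.13 and 1.51 CPM in Mvp KO, as the labels have it (log2 fold change -2.06 ± 0.19 SE, edgeR adjusted p = 0.0162).

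All 8 high genes were lower in Mvp KO with all samples, and without WT replicate 4 the sign turned for 6 of them and stayed negative for *Rgs13* and *Ush1g*. For *Tmem154*, the mean was 9.60 ± 18.1 CPM in WT and 0.643 ± 0.206 CPM in Mvp KO (SD, n = 4 each), with a log2 fold change of -3.90 ± 1.5 SE (edgeR adjusted p = 0.969). Without WT replicate 4, the WT mean was 0.531 ± 0.103 CPM (SD, n = 3) and the log2 fold change 0.27 ± 0.32 SE (95% interval -0.44 to 0.98, edgeR adjusted p = 0.9999). The other 7 high genes had log2 fold changes from -3.25 (*Il17rb*) to -2.42 (*Stc2*) with all samples, and from -0.30 (*Ush1g*) to 0.45 (*Il17rb*) without WT replicate 4. *Ankrd63* was at 19.2 ± 12.7 CPM in WT and 23.5 ± 7.17 CPM in Mvp KO, and its log2 fold change was 0.29 ± 0.65 SE with WT replicate 4 and -0.10 ± 0.25 SE without it. *Fmod* was at 10.1 ± 8.03 CPM in WT and 10.8 ± 9.35 CPM in Mvp KO, and went from 0.08 ± 0.80 SE to -0.30 ± 0.64 SE.

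Without WT replicate 4, 0 of the 10 passed the edgeR test (0.00583% of all genes did), 0 had an unadjusted p under 0.05 (1.34% of all genes did), and 6 were higher and 4 lower in Mvp KO. The levels of the genotypes overlapped for each of the 10, and they did not overlap for 2.8% of all genes. The precision differed widely between them. The 95% interval of the log2 fold change was narrowest for *Htra4* (-0.51 to 0.53) and *Ecel1* (-0.57 to 0.63) and widest for *Rgs13* (-1.75 to 1.47) and *Fmod* (-1.81 to 1.21), so a 2-fold difference lies outside the interval for the first pair and inside it for the second. The median SE of the 10 genes was 1.19 with all samples and 0.401 without WT replicate 4, against 0.140 and 0.114 over all genes. *Npas4* had a log2 fold change of -1.02 ± 0.90 SE with it and 0.97 ± 0.43 SE without it, and *Bdnf* of -1.63 ± 0.73 SE and -0.11 ± 0.21 SE.

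**Figure D3:**
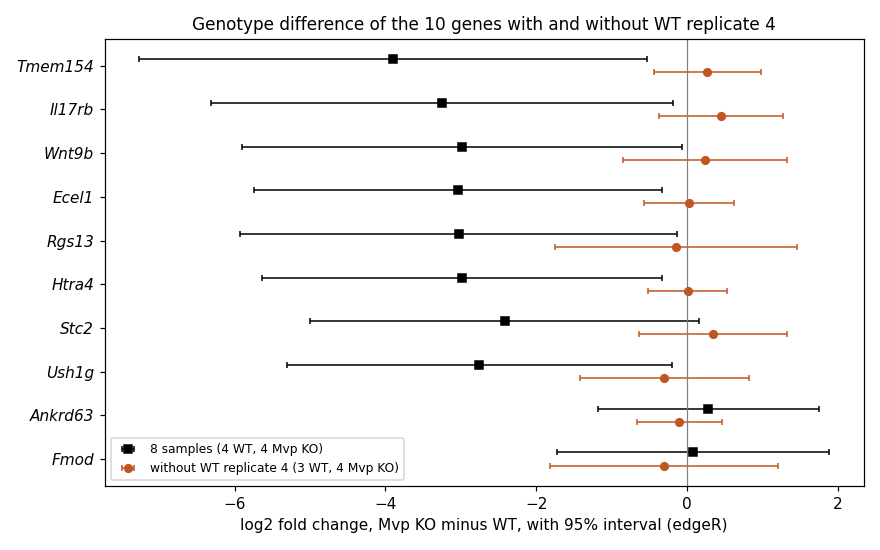
Log2 fold change (Mvp KO minus WT) of the 10 genes in edgeR's fit with its 95% interval, with all 8 samples (black squares) and without WT replicate 4 (orange circles). The 8 high genes lie between -3.90 and -2.42 with all samples and between -0.30 and 0.45 without WT replicate 4, where every interval includes 0.

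Genes of the same families were followed in WT replicate 4. In 8 families related to the 10 genes, 49 of 67 listed genes were tested, 8 stood at least 2-fold above and 5 at least 2-fold below the median of the other 7 samples, and 36 within 2-fold. Of all genes, 3.96% stood at least 2-fold above and 5.19% at least 2-fold below it. Upward, the largest ratio to the median in these families was 7.83-fold (*Wnt16*), below the 25.3-fold or more of the 8 high genes, and downward it was 9.25-fold (*Ogn*), below the 13.9-fold of *Fmod*.

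Of the R4 family of RGS proteins, which like *Rgs13* dampen G-protein signals, 3 of 6 tested genes were over 2-fold higher: *Rgs2* (422 against 61.7 to 75.3 CPM), *Rgs4* (1438 against 475 to 697 CPM) and *Rgs8* (366 against 110 to 159 CPM). *Rgs2* is also the nearest tested gene to *Rgs13* on one side, 134493 bases away. Of 13 tested Wnt ligand genes, *Wnt16* (4.13 against 0.490 to 0.737 CPM) and *Wnt10a* (19.5 against 5.05 to 9.97 CPM) passed 2-fold, and *Wnt3*, which lies 24329 bases from *Wnt9b*, was at 2.44 against 0.560 to 1.89 CPM. Among Usher syndrome genes, *Cdh23* (3.23-fold) and *Pcdh15* (2.02-fold), which encode the cadherins of the hair cell tip link, passed 2-fold, and 5 of 7 did not. *Ece1*, the endothelin-converting enzyme related to *Ecel1*, was 2.01-fold higher, and the other 4 tested M13 peptidase genes stayed within 2-fold. *Stc1*, the only relative of *Stc2*, went the other way, at 1.02 against 1.74 to 3.11 CPM (2.45-fold lower). Of the IL-17 receptors, ligands and adaptor, 0 of 6 passed 2-fold, and of the other HTRA proteases 0 of 3 did, with *Htra1* at 144 against 118 to 153 CPM.

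**Figure D4:**
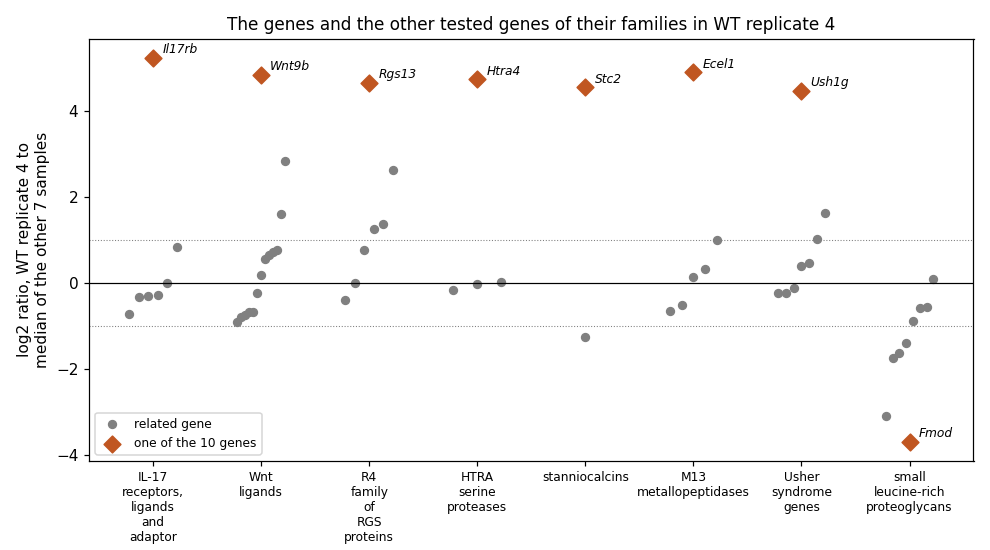
Log2 ratio of WT replicate 4 to the median of the other 7 samples (log2 CPM, prior count 2) for 8 of the 10 genes (orange diamonds) and the tested genes of their families (grey points), with dotted lines at 2-fold. Of the 49 relatives, 8 lie above and 5 below these lines, and 4 of the 5 are relatives of *Fmod*.

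The relatives of *Fmod* are the small leucine-rich proteoglycans of collagen matrix, and 4 of 8 tested were over 2-fold lower in WT replicate 4, with 0 over 2-fold higher. *Ogn* was at 0.603 against 2.29 to 21.3 CPM (9.25-fold lower than the median), *Omd* at 0.127 against 0.305 to 1.92 CPM (4.41-fold), *Prelp* at 4.92 against 12.04 to 20.2 CPM (3.10-fold) and *Dcn* at 3.75 against 5.02 to 28.3 CPM (2.66-fold). Several of these are made by fibroblasts of the leptomeninges, the thin membranes on the cortical surface, and 2 of the 8 (*Dcn* and *Lum*) are also in the list of leptomeningeal markers below.

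Leptomeningeal markers were low in WT replicate 4 as a list. Of 10 markers, 8 were lowest in that sample and 8 were at least 2-fold below the median of the others, and 0 were higher by 2-fold. The transporter genes *Slc22a6* (10.8-fold), *Slc6a13* (10.7-fold) and *Slc13a4* (10.6-fold) were lower by about as much as *Fmod*, and the collagen genes *Col1a1* (3.10-fold) and *Col1a2* (1.88-fold) by less. Summed, the 10 markers were at 65.8 CPM in WT replicate 4 and at 206 to 774 CPM in the others, mostly *Ptgds*, which oligodendrocytes also make. Without *Ptgds*, the sum of the other 9 markers was 72.6, 89.1, 72.5 and 21.1 CPM in the WT replicates and 138, 52.8, 35.6 and 63.1 CPM in the Mvp KO replicates.

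*Fmod* followed this sum in the other samples too. Its log2 level had r = 0.96 (rho = 0.93) with the log2 sum over 8 samples, r = 0.93 (rho = 0.89) over the 7 without WT replicate 4, and r = 0.94 (rho = 0.70) over the 5 left without the 2 farthest of these. Mvp KO replicate 1 was highest of the 7 for *Fmod* and for all 9 markers of the sum, and Mvp KO replicate 3 was lowest for *Fmod* and for 7 of the 9. Over the 7 samples r with this sum was between -0.46 (*Stc2*) and 0.57 (*Il17rb*) for the 9 other genes. The part of leptomeningeal RNA in the level of *Fmod* was not tested further.

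**Figure D5:**
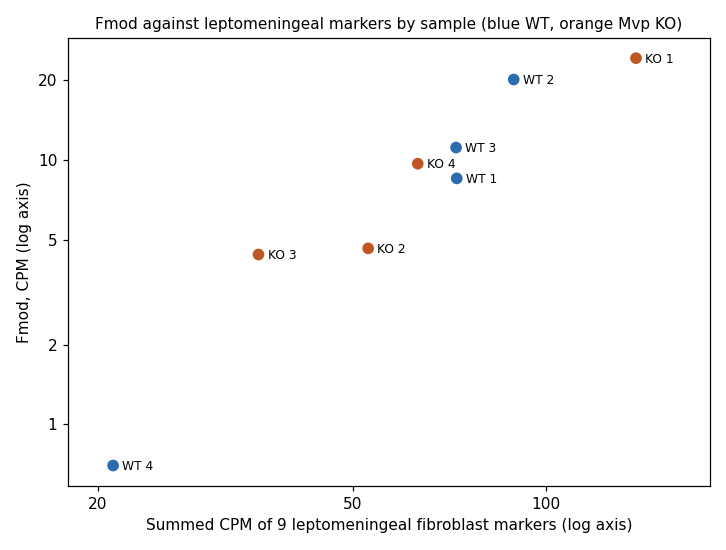
Level of *Fmod* in CPM against the summed CPM of 9 leptomeningeal fibroblast markers, both on log axes, with 1 point per sample (WT in blue, Mvp KO in orange). *Fmod* and the sum are lowest in WT replicate 4 (0.699 and 21.1 CPM) and highest in Mvp KO replicate 1 (24.3 and 138 CPM).

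Other lists also stood apart in WT replicate 4 beside the 8 high genes. Of 12 immediate early genes, *Npas4* among them, 10 were highest there and 7 at least 2-fold above the median of the others. Of 12 later activity-response genes, *Bdnf* among them, 11 were highest and 10 at least 2-fold above it. Of all genes tested, 29.2% were highest there and 3.96% at least 2-fold above the median. The size differed between these genes. *Fos* (153 against 32.5 to 147 CPM) barely passed the next sample, and *Dusp1* (55.4 against 30.3 to 118 CPM) and *Pcsk1* (129 against 105 to 149 CPM) were not highest. The sum of 8 interneuron markers was 1965 CPM against 884 to 1085 CPM, with *Npy* (4.47-fold) and *Gad2* (2.76-fold) over 2-fold higher and *Vip* lowest at 63.3 CPM. Of 9 tested markers of striatal projection neurons, *Adora2a* was 8.78-fold and *Ppp1r1b* 2.53-fold higher, and the defining receptor genes *Drd1* (24.4 against 10.3 to 20.3 CPM) and *Drd2* (1.52 against 0.622 to 2.08 CPM) stayed within 2-fold. The 10 markers of cortical excitatory neurons did not move together. *Emx1* (2.30-fold) and *Cux2* (2.25-fold) were over 2-fold higher, and *Slc17a7* (2731 against 1335 to 1678 CPM) and *Tbr1* were also highest in WT replicate 4, while *Camk2a* (2356 against 2535 to 3681 CPM), *Neurod6* and *Rorb* were lowest there. Their sum, 5877 CPM, lay inside the range of the others (4540 to 5984 CPM), as did those of choroid plexus (5.46 against 4.89 to 9.05 CPM) and microglia (386 against 345 to 392 CPM). Those of astrocytes (1111 against 1114 to 1286 CPM) and endothelial cells (175 against 182 to 260 CPM) were just below it. Dentate gyrus granule cell markers summed to 17.0 CPM, within 14.8 to 24.0 CPM. The cortical markers were present in every sample, as the label of the tissue has it, and the part of any list in the levels of the 8 high genes was not tested.

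Genes next to the 10 on the chromosome were also followed in WT replicate 4. Of the 20 nearest tested protein-coding genes, 4 were at least 2-fold higher there (*Rgs2*, *Plekha2*, *Otop2* and *Btg2*) and *Prelp* was at least 2-fold lower. Of all genes, 3.96% were at least 2-fold higher and 5.19% at least 2-fold lower. The neighbours thus passed 2-fold upward more often than all genes, and the reason was not tested. Of those that passed, *Btg2* (54.2 CPM) lay inside the range of the other samples (18.8 to 130 CPM). *Rgs2* is also in the list of later activity-response genes. The distances reached 134493 bases for *Rgs2* and 2317388 bases for *Brinp3*, both next to *Rgs13*. Their median log2 ratio was 0.29, against -0.04 over all genes. *Plekha2*, which lies 182 bases from *Htra4*, was at 110 against 26.6 to 34.03 CPM, and *Otop2*, which overlaps *Ush1g* in position, at 7.53 against 2.39 to 3.36 CPM. *Chdh*, 127 bases from *Il17rb*, was at 4.83 CPM, within the 2.09 to 8.08 CPM of the others.

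Beyond the genes chosen, the loadings next in size belonged to *Drd4*, *Nptx2*, *Oprk1*, *Slc47a1*, *Slc22a2*, *Inhba*, *Acaa1b*, *Gm765*, *Gprc5c* and *Dennd2c*. *Drd4* was at 10.4 CPM in WT replicate 4 against 0.237 to 0.576 CPM, *Nptx2* at 1190 against 44.5 to 107 CPM, and *Oprk1* at 0.635 against 8.11 to 15.7 CPM. The genes with the highest r to the mean profile of the 10 over the 8 samples were *Hnrnpll* (r = 0.997), *Gnl2*, *Dtx4*, *Tpm1* and *Rasa3* (each r = 0.996). Their levels differed far less, for example *Gnl2* at 85.9 CPM in WT replicate 4 against 66.6 to 68.8 CPM and *Tpm1* at 519 against 195 to 221 CPM. Likeness by r over these samples is thus a matter of WT replicate 4 lying apart and of the other 7 lying close together, not of the size of the difference.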

How the data were processed

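Cingulate cortex RNA of 4 WT and 4 Mvp KO male mice was sequenced as stranded polyadenylated libraries from 200 ng of total RNA. The authors trimmed reads with cutadapt 1.10, removed ribosomal reads with bowtie 2.2.8, mapped with STAR 2.5.3a to mm10 and deposited raw counts per gene from htseq-count 0.6.1p1. The counting mode and strand setting are not given in the sources used here. Samples were grouped by their labels. Symbols and positions came from GENCODE vM21 (GRCm38), which holds 53274 of the 53379 identifiers.

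The analysis used edgeR 4.0.16 (R 4.3.3): filterByExpr (minimum count 10, minimum total count 15), TMM factors, and a robust quasi-likelihood fit with genotype as its term, with Benjamini-Hochberg adjustment over all genes tested and a threshold of 0.05. The SE is the absolute log2 fold change over the square root of F. CPM used TMM-scaled library sizes, and log2 CPM a prior count of 2. Every one of the 10 genes passed the filter with and without WT replicate 4. The fit was tested on simulated counts of 16725 genes, where it recovered 28%, 60%, 86% and 96% of genes changed 1.5-, 2-, 3- and 8-fold, with 6.90% false calls. Without WT replicate 4 it recovered 18%, 56%, 88% and 96%, with 9.79% false calls. The simulation took its means and dispersions from all 8 samples and did not set 1 sample apart. The shares with all samples, and those without WT replicate 4, therefore do not carry over to the 10 genes. Alternatives were DESeq2 1.42.0 (26.0% false calls in the simulation), its size factors, other filters and prior counts, unit-variance scaling, Spearman's rho, a replicate block and leaving out each sample. No pair of samples within a genotype was near-identical (chi-square per gene 6.93 to 96.3).

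Depth was between 28456504 and 42854368 counts per sample. The Poisson interval of a ratio to the pooled samples covers counting error only. The intervals of the log2 fold changes come from the edgeR fit and also hold the spread between samples. The genes, lists and motifs were chosen with earlier results of these data known. Genes named are the 10 genes, *Npas4*, *Bdnf*, *Mvp*, the 10 next loadings, the 5 genes most like the mean profile, family genes at least 2-fold from the median in WT replicate 4, and defining genes of marker lists; others were named after their values were seen. An item that falls under this rule is not reported here. Figures were drawn with Python 3.11.15 and matplotlib 3.10.9.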

Additional observations from a re-analysis of the deposited data

Results flagged for a closer look

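In a group of 4 samples, a value was set aside for a closer look when the gap to its nearest neighbour was a larger share of the group's range than Dixon's 95% critical value, which chance gives in about 1 of 20 groups. Of 34 groups tested, 13 met this, where chance would give 1.7. In WT replicate 4 they were *Tmem154* (36.8 CPM), *Il17rb* (29.9 CPM), *Wnt9b* (12.4 CPM), *Ecel1* (60.8 CPM), *Rgs13* (19.1 CPM), *Htra4* (45.8 CPM), *Stc2* (18.2 CPM), *Ush1g* (7.33 CPM), *Npas4* (465 CPM) and *Bdnf* (599 CPM), each far above the other WT samples. The genes were chosen for this, so the flags add nothing to it. *Rgs13* was low in Mvp KO replicate 2 (0.388 CPM), *Mvp* was high among the Mvp KO samples in replicate 3 (2.13 CPM), and WT replicate 2 had more counts than the other WT samples (42854368 counts).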

How the results depend on the processing

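Of 173 recomputed values of 16 results, 161 kept their direction and their side of the threshold. Leaving out WT replicate 4 turned the log2 fold change (Mvp KO minus WT) of *Tmem154* to 0.27, *Il17rb* to 0.45, *Wnt9b* to 0.24, *Ecel1* to 0.026, *Htra4* to 0.0092, *Stc2* to 0.35, *Ankrd63* to -0.10 and *Fmod* to -0.30, and *Fmod* was also turned, to -0.71, without Mvp KO replicate 1. Over all fits that left out a sample, the lowest values of *Tmem154*, *Il17rb*, *Wnt9b*, *Ecel1*, *Htra4* and *Stc2* were -4.32, -3.67, -3.41, -3.43, -3.39 and -2.98, and the highest of *Ankrd63* and *Fmod* were 0.60 and 0.67. The number of the 10 genes among the 100 largest loadings fell from 10 to 2 with genes scaled to unit variance and ranged from 0 (without WT replicate 4) to 10 over the fits that left out a sample. The number with a positive r to *Npas4* over 7 samples ranged from 2 to 4 (4 without WT replicate 1), and to *Bdnf* from 5 to 7 (5 without Mvp KO replicate 2). The cause was not tested. With the replicate block, 0 of the 10 genes and 0 of all genes were called by edgeR (lowest adjusted p of the 10 genes 0.953). The block kept the signs but made the log2 fold changes of the high genes smaller in size, between -1.62 (*Ush1g*) and -0.84 (*Stc2*). Those of *Ankrd63* and *Fmod* became larger, at 0.53 and 0.24. Deviations of same-numbered samples had correlations of 0.05, 0.29, -0.01 and 0.05. The labels do not say whether the numbers pair the samples, and these few values cannot settle it. A minimum of 10 counts in every sample kept 7 of the 10 genes. Genes with about 10 counts a sample limit what can be said of *Wnt9b* and *Ush1g* outside WT replicate 4.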
